A study of Mus musculus with 12 samples.

Results

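The genes described here are those of fatty acid oxidation in liver together with targets of PPARA, the nuclear receptor that switches on fatty acid burning. They were chosen from a list of 35 gene symbols matched, under current or older names, to the array's annotation; 34 had at least 1 probe set, 53 probe sets in all, out of 12393 genes named on the array. Acsl1 was not analysed here. Each member was read from the probe set with the highest mean signal, and all 34 passed the signal filter that left 7217 genes for testing. Of these, 33 lay above the array median on all 12 arrays, and Pdk4 on 7.

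Liver RNA of 12 female C57BL/6 mice, an inbred strain, was read on Affymetrix arrays, each mouse on an array of its own, in 4 groups of 3 mice. Testosterone mice received 0.9 mg of the hormone in 100 µl of sesame oil under the skin, 2 times a week for 3 weeks, and were sampled either when treatment ended or after a withdrawal period. Vehicle mice received the same volume of sesame oil on the same schedule and were sampled at the same times. The sample labels put the withdrawal period at 12 weeks and the series' design text at 3 weeks, and no source used here states how old the mice were.

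Fatty acids enter the hepatocyte with the help of carriers such as CD36 and are bound in the cytosol by FABP1. Long chains are moved into mitochondria as carnitine esters and shortened by repeated rounds of dehydrogenation, hydration, a second dehydrogenation and thiolysis, while very long and branched chains are first shortened in peroxisomes. Acetyl-CoA that is not burned in the liver is exported as ketone bodies. In fasting, fatty acids activate PPARA, which pairs with RXR on a direct repeat of a short DNA half-site and raises transcription of many of these enzymes.

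The promoters of the members were searched for the letters of that repeat in the 250 bases before each start, in RefSeq sequences of build GRCm38.p6. Promoter windows existed for 29 members, with 31 windows. The repeat was searched on both strands as a pair of half-sites in the same direction with 1 base between them. With 1 letter of each half-site left free (AGGNCA), it stood in 1 member window, that of Fabp1, and in 0.338% of 32851 promoters. With the exact half-site AGGTCA it stood in 0 member windows and in 0.033% of promoters. A single half-site AGGTCA, on either strand, stood in the windows of 6 members, Fabp1, Acadm, Plin2, Cd36, Acadvl and Cpt1a, and in 14.0% of all promoters. Fabp1 held it inside the repeat and once more, 9 to 4 bases before the start. Shown is the repeat of Fabp1, matched only with 1 letter of each half-site left free. Shown too are the half-sites of Acadm, Plin2 and Cd36, the 3 of the 6 members with a called testosterone change. All are written 5′ to 3′ on the strand of the gene, with matching letters in capitals (TGACCT is the half-site read on the opposite strand). These matches are letters only, and no measurement of binding is part of this study.
Fabp1, chr6:71199782-71199854, plus strand, match 67 to 55 bases before the start: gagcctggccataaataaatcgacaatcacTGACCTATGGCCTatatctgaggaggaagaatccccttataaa
Acadm, chr3:153944857-153944893, minus strand, match 249 to 244 bases before the start: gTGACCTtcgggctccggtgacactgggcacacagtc
Plin2, chr4:86670242-86670307, minus strand, match 218 to 213 bases before the start: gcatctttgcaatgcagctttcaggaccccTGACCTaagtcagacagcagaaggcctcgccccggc
Cd36, chr5:17836089-17836146, minus strand, match 228 to 223 bases before the start: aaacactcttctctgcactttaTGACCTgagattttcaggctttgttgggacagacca

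Array medians lay between 20.03 and 22.44. Hepatocyte markers were bright on all arrays, with summed signals of 53382 to 54173 in testosterone mice and 51882 to 55495 in vehicle mice when treatment ended, and 12 of 12 measured markers above the filter. Beta-actin probe sets at both ends of the transcript gave a 3′/5′ ratio, a measure of RNA integrity and labelling, of 2.03 to 2.19 in testosterone mice and 1.44 to 1.64 in vehicle mice at the end. After withdrawal it was 1.47 to 1.82 in testosterone mice and 1.60 to 1.89 in vehicle mice. The same ratio of pyruvate carboxylase was 17.3 to 21.9 in testosterone mice and 4.57 to 7.20 in vehicle mice at the end, and 9.33 to 15.3 in testosterone mice and 9.03 to 17.0 in vehicle mice after withdrawal. That of Gapdh was 0.908 to 0.958 in testosterone mice and 0.735 to 0.798 in vehicle mice at the end, and 0.787 to 0.879 in testosterone mice and 0.742 to 0.838 in vehicle mice after withdrawal. Skeletal muscle transcripts were read in mouse 1 of both withdrawal groups: 9 muscle markers summed to 1055 in testosterone mouse 1 and 448 in vehicle mouse 1. Acta1, the actin of skeletal muscle, read 332 in testosterone mouse 1 and 142 in vehicle mouse 1, and at most 5.61 in the other 10 mice. Results that include these mice were therefore also computed without both. All signals below are array intensities of single mice or means ± SD over 3 mice, changes are log2 differences ± the standard error of the limma fit, and a change is called when limma's p, adjusted by Benjamini-Hochberg over 7217 genes, is under 0.05.

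At the end of treatment, 10 of the 34 members differed between testosterone and vehicle livers: 7 were higher and 3 lower. Over all genes tested, 9.42% were called higher and 8.01% lower. The higher members were the carnitine carrier Slc25a20 and the mitochondrial enzymes Acadm and Decr1, the peroxisomal genes Pex11a, Acaa1b and Hsd17b4, and the fatty acid binding protein Fabp2. The lower members were the peroxisomal reductase Decr2, the ketone body enzyme Bdh1 and the fatty acid transporter Cd36. The median change of the members was 0.12, against 0.04 for all genes, and the mice of the groups did not overlap in 13 of 34 members, against 35.7% of all genes.

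**Figure D1:**
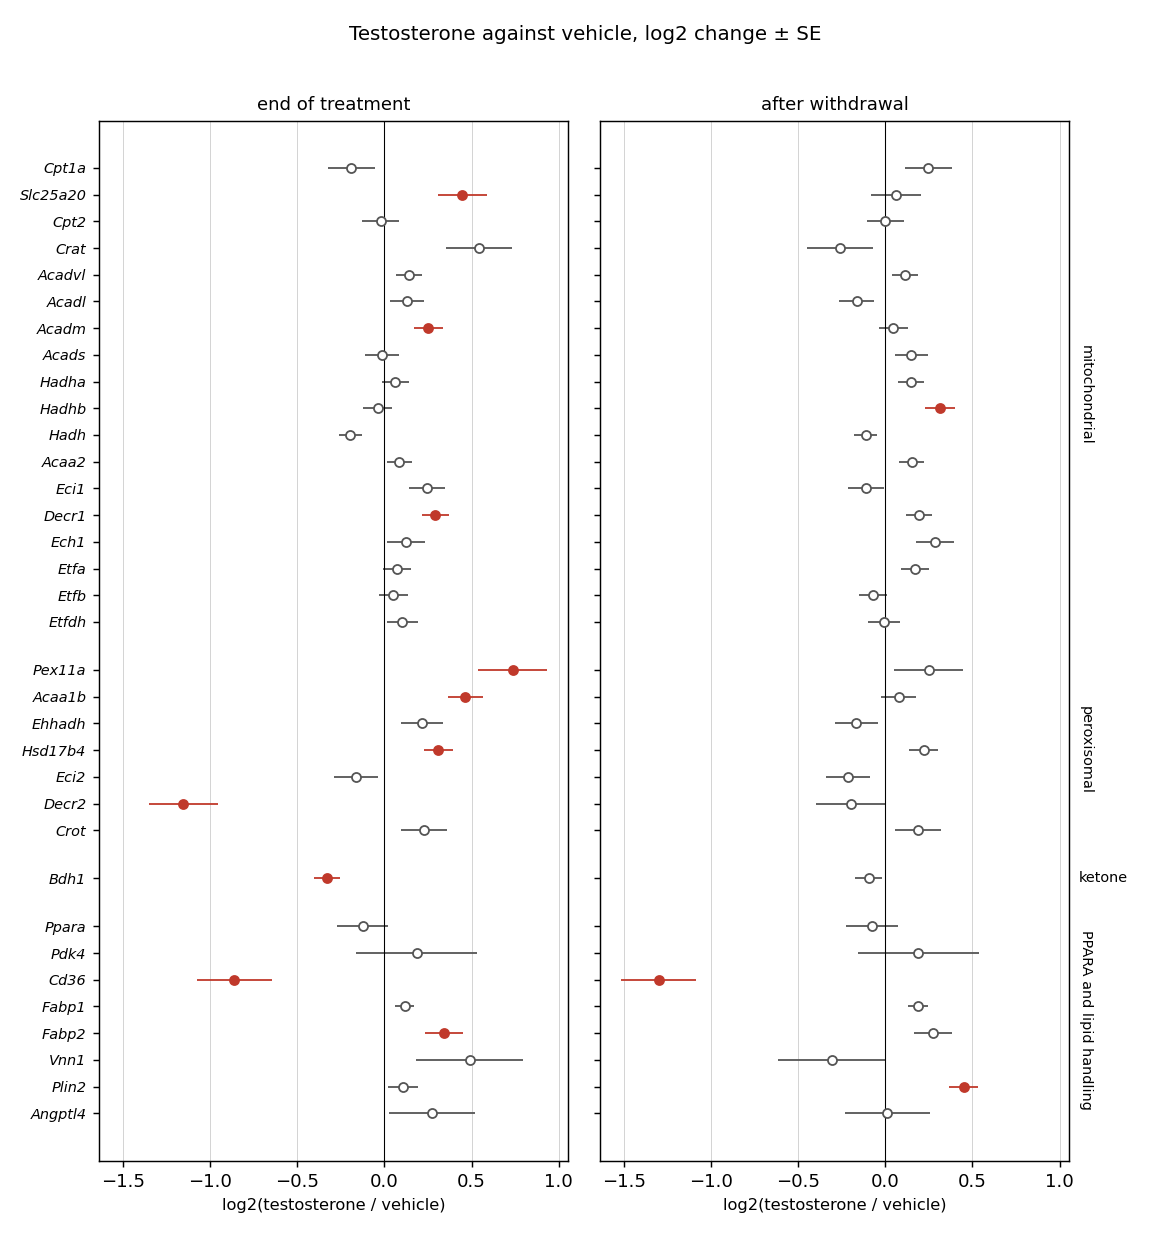
Log2 change of each of the 34 measured members, testosterone over vehicle, at the end of treatment (left) and after withdrawal (right), grouped by role. Points are limma estimates with bars of 1 standard error, and filled red points are called at an adjusted p under 0.05: 7 higher and 3 lower at the end, 2 higher and 1 lower after withdrawal.

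Among the mitochondrial genes, 3 of 18 were higher, 0 were lower and 15 were not called. Slc25a20 exchanges acylcarnitine for carnitine across the inner membrane. It read 988, 805 and 794 in testosterone livers, against 533, 721 and 649 in vehicle livers. All 3 testosterone mice lay above the vehicle mice (0.45 ± 0.14, adjusted p = 0.0429 by limma). A second probe set of the gene gave 0.10, so the size of this change differs between probe sets.

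Acadm, the dehydrogenase for medium chains, read 1445, 1299 and 1341 in testosterone livers, against 1050, 1119 and 1267 in vehicle livers. The groups did not overlap, and the change was small (0.25 ± 0.08, adjusted p = 0.0437 by limma). Decr1, the mitochondrial reductase needed for unsaturated chains, read 1102, 1066 and 1044 in testosterone livers, against 815, 868 and 944 in vehicle livers. Here too every testosterone mouse was above every vehicle mouse (0.29 ± 0.08, adjusted p = 0.0165 by limma).

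Carnitine palmitoyltransferase 1, the step at which entry into mitochondria is controlled, was not called: Cpt1a read 872, 814 and 600 in testosterone livers, against 859, 817 and 900 in vehicle livers (-0.19 ± 0.14). Its other 2 probe sets gave positive changes of 0.35 and 0.58, also not called. Cpt2, Acadvl, Acadl, Acads, Hadha, Hadhb, Acaa2, Ech1, Etfa, Etfb and Etfdh, which serve other steps of the mitochondrial spiral and the flavoprotein path to the respiratory chain, gave -0.04 to 0.14 and were not called. Crat, carnitine acetyltransferase, gave 0.54 ± 0.19 (adjusted p = 0.0601 by limma), and the isomerase Eci1 0.24. Hadh, the short-chain 3-hydroxyacyl-CoA dehydrogenase, gave -0.20 (adjusted p = 0.0599 by limma). Another of its probe sets gave -0.35, with adjusted p = 0.0351 over all named probe sets.

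The peroxisomal genes moved in both directions, with 3 of 7 higher, 1 lower and 3 not called. Pex11a, which takes part in peroxisome division, read 388, 401 and 279 in testosterone livers, against 168, 234 and 238 in vehicle livers (0.74 ± 0.20, adjusted p = 0.0188 by limma). This was the largest increase among the 34 members at this time. Its second probe set gave 0.95. Acaa1b, a peroxisomal thiolase, read 4473, 4071 and 4130 in testosterone livers, against 2860, 2686 and 3726 in vehicle livers (0.46 ± 0.10, adjusted p = 0.00634 by limma). The groups did not overlap, although vehicle mouse 3 lay closer to the testosterone mice than the other vehicle mice did. Acaa1b has a close relative, Acaa1a, and 2 further probe sets annotated to both genes were not used.

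Hsd17b4, the multifunctional enzyme for branched chains and bile acid intermediates, read 1501, 1370 and 1394 in testosterone livers, against 1144, 1037 and 1267 in vehicle livers (0.31 ± 0.08, adjusted p = 0.0205 by limma). Ehhadh, its counterpart for straight chains, gave 0.22, the octanoyltransferase Crot 0.23 and the isomerase Eci2 -0.16, none of them called.

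Decr2, the peroxisomal counterpart of Decr1, had the largest decrease among the members at the end of treatment. It read 167, 149 and 183 in testosterone livers, against 451, 478 and 233 in vehicle livers. Vehicle mouse 3 was near the testosterone mice, yet above all of them. The change was -1.16 ± 0.20 (2.23-fold lower, adjusted p = 0.00122 by limma), and -1.49 without vehicle mouse 3. The mitochondrial and the peroxisomal dienoyl-CoA reductase thus had called changes of opposite sign in the same livers.

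Bdh1, the mitochondrial enzyme that interconverts the main ketone bodies, read 884, 821 and 835 in testosterone livers, against 1067, 1005 and 1121 in vehicle livers (-0.33 ± 0.08, adjusted p = 0.00926 by limma). All vehicle mice were above all testosterone mice. The mean with its dim second probe set, which gave 0.02, was not called. Cd36, a fatty acid translocase of hepatocytes, fat cells, endothelium and macrophages, read 93.4, 120 and 83.8 in testosterone livers, against 190, 186 and 159 in vehicle livers (-0.86 ± 0.22, 1.82-fold lower, adjusted p = 0.0135 by limma). All 3 of its probe sets had negative changes, -0.56 to -0.89. Macrophage markers were lower in the same comparison, with summed signals of 2888 to 3557 in testosterone livers and 4042 to 6347 in vehicle livers and 7 of 13 called lower. Their part in the Cd36 result was not tested, and fewer cells of a type cannot be told apart from less RNA per cell in whole liver.

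Of the receptor and its other targets, Fabp2, an intestinal fatty acid binding protein also read in these livers, was higher, with 578, 600 and 523 in testosterone livers against 398, 477 and 470 in vehicle livers (0.34 ± 0.11, adjusted p = 0.0438 by limma). Intestinal markers, a list that holds Fabp2 itself, summed to 844 to 1097 in testosterone livers and 988 to 1152 in vehicle livers, with 5 of 9 at or under the floor on average. Ppara itself read 860, 870 and 729 in testosterone livers, against 758, 944 and 989 in vehicle livers, and was not called (-0.13 ± 0.15). The pyruvate dehydrogenase kinase Pdk4 (0.18), Fabp1 (0.12), the pantetheinase Vnn1 (0.49 ± 0.31), the lipid droplet coat protein Plin2 (0.11) and the lipase inhibitor Angptl4 (0.27) were not called either. The Fabp1 probe set was the brightest or second brightest on all 12 arrays, with 5980 to 7257.

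With the actin ratio as a term in the fit, 0 of these 10 calls remained, and all 10 changes kept their direction, from 0.09 for Slc25a20 to 0.74 for Acaa1b and -0.13 for Bdh1 to -1.38 for Decr2. Acaa1b, Decr2, Hsd17b4 and Fabp2 had larger changes with the ratio in the fit than without. The share of all genes that kept a call in this fit is not given here, nor for the comparisons below. The loss of calls is therefore not shown to be particular to these members. All 3 ratios separated the groups of this comparison, so their part in these results cannot be told apart from treatment. Over 10 alternatives in processing, the actin ratio among them, Slc25a20, Acadm and Fabp2 lost the call in 6, Cd36 in 4 and Bdh1 in 3. Pex11a and Hsd17b4 lost it in 2, and Acaa1b, Decr2 and Decr1 in 1. Acaa1b, Decr2 and Bdh1 stayed called without any single mouse, whereas only 1 member stayed higher without testosterone mouse 1 or without vehicle mouse 1 and 3 without testosterone mouse 2. Slc25a20 and Acadm each lost the call without any of 5 of the 6 mice (0.33 to 0.55 for Slc25a20, 0.19 to 0.33 for Acadm; vehicle mouse 2 for Slc25a20 and vehicle mouse 3 for Acadm were the exceptions). Fabp2 lost it without testosterone mouse 1 or 2 or vehicle mouse 1 or 3 (0.26 to 0.40), Hsd17b4 without testosterone mouse 1 or vehicle mouse 1 or 2 (0.24 to 0.38), Pex11a without testosterone mouse 1 or 2 or vehicle mouse 1 (0.57 to 0.90), Decr1 without testosterone mouse 1 or vehicle mouse 1 (0.24 to 0.35) and Cd36 without testosterone mouse 3 (-1.01 to -0.75); the ranges are over all 6 omissions.

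**Figure D2:**
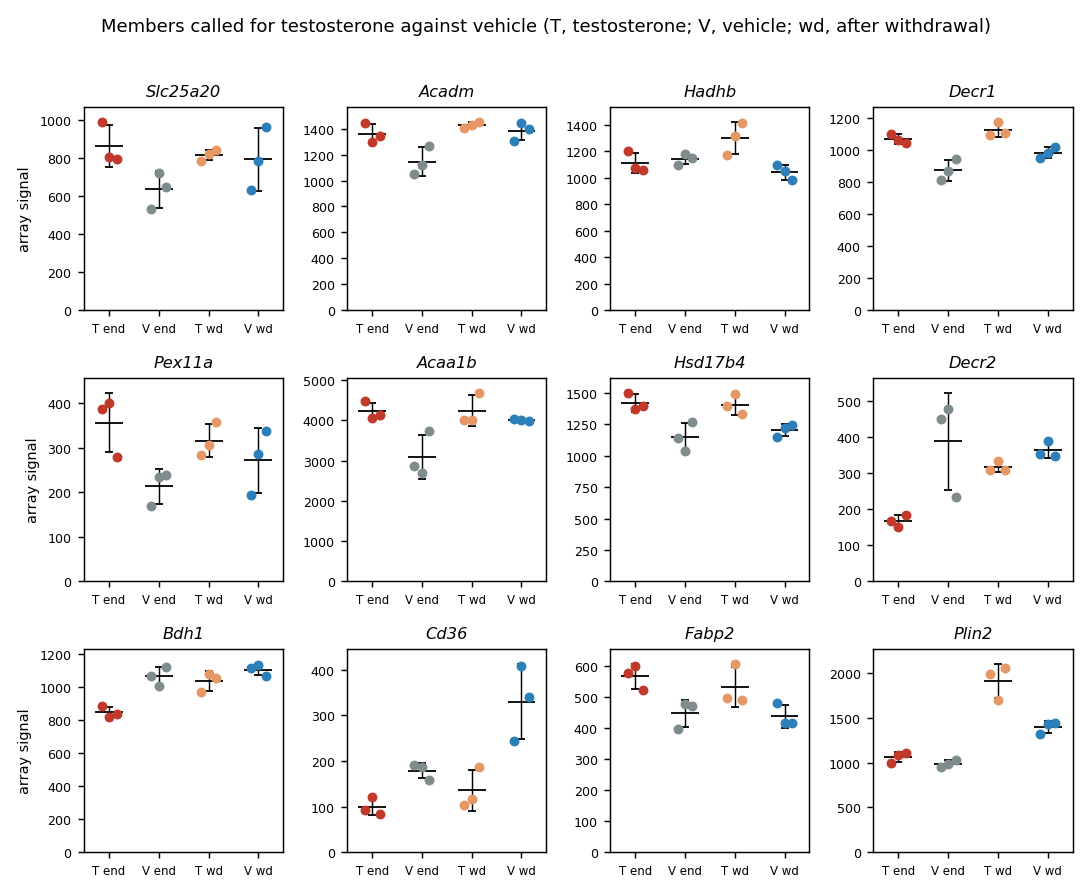
Array signal of every mouse for the 12 members called between testosterone (T) and vehicle (V), at the end or after withdrawal (wd); points are mice, lines means and bars SD (n = 3), and each axis starts at 0. Decr2 read 149 to 183 in T end mice and 233 to 478 in V end mice, while Cd36 was lower in T than in V mice at both times.

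After withdrawal, 3 of the 34 members differed between the treatments: Cd36 was lower, and Plin2 and Hadhb were higher. Over all genes tested, 2.74% were called higher and 3.26% lower. The groups of mice did not overlap in 14 of 34 members, against 25.9% of all genes, both counted in either direction. Of the 14 members, 11 were upward, but the upward share of all genes is not given here. Hepatocyte markers had changes in the same direction: 11 of 12 had a positive change, with a median of 0.22 and 3 called higher, and they summed to 54336 to 65486 in testosterone livers and 50060 to 56077 in vehicle livers. Their part in the members' changes was not tested. The median change of the members was 0.07, against -0.04 for all genes. None of the 7 members that were higher at the end was called at this time; Cd36 was called lower at both.

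Cd36 read 104, 116 and 186 in testosterone livers, against 243, 407 and 340 in vehicle livers after withdrawal. The highest testosterone mouse was below the lowest vehicle mouse (-1.30 ± 0.22, 2.46-fold lower, adjusted p = 0.00168 by limma). The call held in each of the 11 alternatives run at this time and without any single mouse, with -1.34 without both mice that carried muscle RNA. Macrophage markers overlapped between the groups after withdrawal, with summed signals of 2400 to 2682 in testosterone livers and 1968 to 3693 in vehicle livers and 1 of 13 called lower. Endothelial markers summed to 567 to 626 in testosterone livers and 581 to 649 in vehicle livers, with 0 of 8 called. Fat cell markers summed to 89.2 to 167 in testosterone livers and 96.9 to 134 in vehicle livers, with 0 of 2 tested markers called and 0 with an unadjusted p under 0.05 in limma. The part of these cell types in the Cd36 result was not tested.

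Plin2, which coats lipid droplets, read 1984, 1696 and 2055 in testosterone livers, against 1318, 1431 and 1439 in vehicle livers (0.45 ± 0.08, 1.37-fold higher, adjusted p = 0.00453 by limma). The groups were well apart, and the call held under all 11 alternatives and without any single mouse. Hadhb, the thiolase subunit of the trifunctional protein, read 1172, 1316 and 1413 in testosterone livers, against 1094, 1052 and 983 in vehicle livers (0.32 ± 0.09, adjusted p = 0.0405 by limma). Its second probe set gave -0.04, and the call was lost in 7 of 11 alternatives and without testosterone mouse 2 or 3 or vehicle mouse 2 or 3 (0.25 to 0.39 over the 6 omissions). Hadha, the partner subunit, gave 0.15 and was not called, although its groups did not overlap either.

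Of the 7 members higher at the end, 3 again had groups apart without a call. Decr1 read 1095, 1177 and 1109 in testosterone livers and 954, 984 and 1019 in vehicle livers (0.19 ± 0.08). Hsd17b4 averaged 1406 ± 82.6 in testosterone livers and 1206 ± 49.6 in vehicle livers, and Fabp2 532 ± 65.2 and 438 ± 36.8. In the other 4, Slc25a20, Acadm, Acaa1b and Pex11a, the groups overlapped. Acaa1b read 4022, 4020 and 4684 in testosterone livers, against 4048, 4013 and 3980 in vehicle livers. Pex11a read 284, 306 and 357 in testosterone livers, against 193, 285 and 337 in vehicle livers. The members lower at the end other than Cd36 were not called. Decr2 read 308, 333 and 308 in testosterone livers and 353, 389 and 348 in vehicle livers, with no overlap (-0.20 ± 0.20). Bdh1 averaged 1036 ± 58.9 in testosterone livers and 1105 ± 34.6 in vehicle livers. The remaining uncalled members lay between -0.31 for Vnn1 and 0.29 for Ech1. With quantile normalization 2 members were higher and 2 lower, Hadh being the added one (-0.20), and with median centring 1 was higher and 1 lower. Without testosterone mouse 1, Ech1 (0.40) and Fabp1 (0.21) were called as well, which made 4 members higher.

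The difference between the testosterone effects at the 2 times was tested directly. None of the 34 members passed, against 2.19% of all genes (0.79% with a more positive and 1.4% with a more negative effect after withdrawal). At an unadjusted p under 0.05 in limma, 5 members had a more positive and 4 a more negative effect after withdrawal. The share of all genes at that threshold is not given here, so these counts cannot be set against it. The largest difference was that of Decr2 (0.96 ± 0.28, adjusted p = 0.0796 by limma), followed by Crat (-0.81 ± 0.27, adjusted p = 0.106). Without vehicle mouse 3 of the end, Decr2 (1.29, adjusted p = 0.000637) and Acaa1b (-0.53, adjusted p = 0.0193) passed in limma. Hadhb passed without testosterone mouse 1 of withdrawal (0.43) and without both mice that carried muscle RNA (0.46, adjusted p = 0.0316). Cd36 gave -0.44 ± 0.30, which did not pass.

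The samples also allow each treatment to be compared across time, withdrawal against the end of treatment. The later mice had also aged over the interval, and age and time since injection cannot be told apart. In testosterone livers 8 of the 34 members were higher and 0 lower at the withdrawal time, where 5.57% of all genes were called higher and 5.31% lower. In vehicle livers 12 were higher and 1 lower, where 11% of all genes were called higher and 6.83% lower. The median change of the members was 0.12 in testosterone livers, against -0.01 for all genes, and 0.20 in vehicle livers, against 0.06 for all genes. Acads, Etfdh, Crot, Pdk4 and Plin2 were higher in both treatments, in mice that the 2 comparisons do not share. The mice of the times did not overlap in 10 of the 34 members in testosterone livers, against 31% of all genes, and in 18 of 34 in vehicle livers, against 35.1%. The 5 members higher in both are 5 of the 8 members higher in testosterone livers and 5 of the 12 higher in vehicle livers. The share of all genes higher in both is not given here, so this overlap cannot be set against it. Pdk4, 1 of these 5, passed the signal filter through its later mice. With the actin ratio in the fit, 1 of the 8 calls in testosterone livers remained, that of Plin2, and 4 of the 13 in vehicle livers, those of Etfdh, Acaa1b, Pdk4 and Plin2. The changes that lost their call kept their direction and many their size: in testosterone livers Pdk4 gave 2.06, Decr2 1.12 and Crot 0.77 with the ratio in the fit, whereas Bdh1 gave 0.13. In vehicle livers Cd36 gave 0.94, Crat 0.93 and Cpt1a -0.57. In testosterone mice the actin, Gapdh and pyruvate carboxylase ratios were all lower after withdrawal, with no overlap between the times. Their part in the changes of testosterone livers therefore cannot be told apart from time. In vehicle mice the pyruvate carboxylase ratio was higher after withdrawal with no overlap, while the actin and Gapdh ratios overlapped. The part of the pyruvate carboxylase ratio in the vehicle changes was not tested. Without both mice that carried muscle RNA, 9 members were higher and 0 lower in testosterone livers and 13 higher and 0 lower in vehicle livers.

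**Figure D3:**
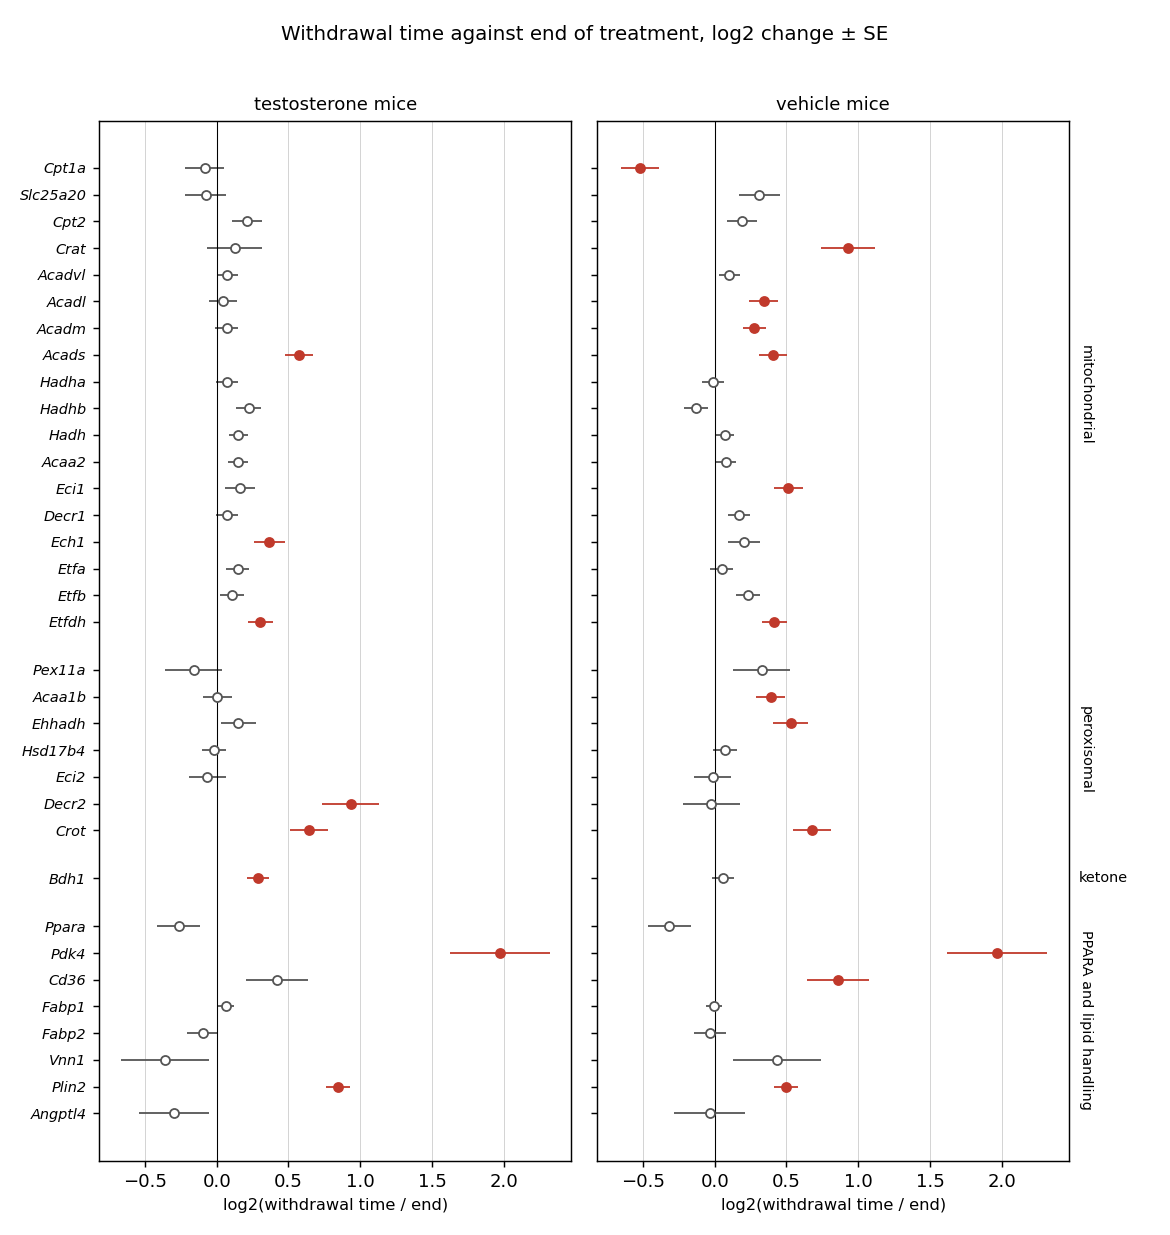
Log2 change of each of the 34 measured members between the times, withdrawal over end of treatment, in testosterone mice (left) and vehicle mice (right), grouped by role. Points are limma estimates with bars of 1 standard error, and filled red points are called: 8 higher in testosterone mice, 12 higher and 1 lower in vehicle mice.

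Pdk4, the kinase that spares glucose by shutting pyruvate dehydrogenase, had the largest change of all members in both treatments. It read 96.9, 33.0 and 60.2 in testosterone livers at the withdrawal time, against 22.0, 11.9 and 12.1 at the end. In vehicle livers it read 52.8, 54.8 and 44.8 at the withdrawal time, against 12.5, 9.62 and 18.0 at the end. Pdk4 passed the filter through its later mice, since it lay above the array median in 6 of 6 of these and in 1 of 6 mice of the end; the size of its change therefore rests on dim signals at the end. The lowest later mouse was above the highest earlier one in each treatment (1.97 ± 0.35 in both, 3.93-fold and 3.92-fold, adjusted p = 0.00231 and 0.00189 by limma). Testosterone mouse 1, which carried muscle RNA, had the highest Pdk4 signal. Without both such mice the changes were 1.60 in testosterone livers and 1.94 in vehicle livers, both called.

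Plin2 averaged 1912 ± 190 in testosterone livers at the withdrawal time and 1063 ± 59.5 at the end, a change of 0.84 ± 0.08 (1.79-fold, adjusted p = 1.56e-05 by limma). In vehicle livers it averaged 1396 ± 67.7 at the withdrawal time and 987 ± 38.5 at the end (0.50 ± 0.08, adjusted p = 0.00141). Neither call was lost in any alternative or omission of a mouse. Crot, which prepares medium chains shortened in peroxisomes for export, read 2182, 2156 and 2206 in testosterone livers at the withdrawal time, against 1191, 1863 and 1231 at the end (0.64 ± 0.13, adjusted p = 0.00649 by limma). Testosterone mouse 2 of the end lay nearer to the later mice than the others. In vehicle livers Crot averaged 1920 ± 190 at the withdrawal time and 1197 ± 58.8 at the end (0.68 ± 0.13, adjusted p = 0.00339).

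Acads, the dehydrogenase for short chains, averaged 311 ± 23.7 at the withdrawal time and 209 ± 13.0 at the end in testosterone livers (0.57 ± 0.10, adjusted p = 0.00178 by limma). In vehicle livers it averaged 280 ± 20.3 at the withdrawal time and 211 ± 1.76 at the end (0.41 ± 0.10, adjusted p = 0.0112), a call lost without vehicle mouse 2 of withdrawal (0.35). Etfdh, which passes the electrons on to ubiquinone, averaged 861 ± 80.6 at the withdrawal time and 695 ± 26.2 at the end in testosterone livers (0.31 ± 0.09, adjusted p = 0.0397 by limma). In vehicle livers it averaged 863 ± 26.2 at the withdrawal time and 649 ± 55.4 at the end (0.42 ± 0.09, adjusted p = 0.00639). The call in testosterone livers was lost without any of 5 of the 6 mice (0.24 to 0.37), testosterone mouse 2 of withdrawal being the exception. Of 11 alternatives, Etfdh lost this call in 7 and that in vehicle livers in 1.

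In vehicle livers alone the other members called higher were Crat (0.93 ± 0.19), Cd36 (0.86 ± 0.22), Ehhadh (0.53 ± 0.12), Eci1 (0.51 ± 0.10), Acaa1b (0.39 ± 0.10), Acadl (0.34 ± 0.10) and Acadm (0.28 ± 0.08). Crat read 67.4, 98.1 and 88.6 at the withdrawal time, against 38.7, 40.8 and 53.5 at the end. Ehhadh averaged 1391 ± 183 at the withdrawal time and 961 ± 115 at the end, Eci1 640 ± 58.5 and 448 ± 41.9, and Acadl 884 ± 71.6 and 700 ± 95.6. Acadl was called although one earlier mouse reached the level of the later ones. Cd36 averaged 330 ± 82.5 at the withdrawal time and 178 ± 16.9 at the end. Macrophage markers were lower in the same comparison, 10 of 13 being called, and their part in the Cd36 change was not tested. Cpt1a was the lower member: 490, 663 and 658 at the withdrawal time, against 859, 817 and 900 at the end (-0.52 ± 0.14, adjusted p = 0.0171 by limma). That call was lost without vehicle mouse 1 of withdrawal (-0.38), and the mean of its 3 probe sets gave -0.08. Acaa1b, Acadl and Acadm lost their calls without vehicle mouse 1 or 2 of the end or vehicle mouse 2 or 3 of withdrawal (0.30 to 0.53, 0.27 to 0.45 and 0.21 to 0.35 over the 6 omissions), Cd36 without vehicle mouse 2 or 3 of withdrawal (0.69 to 1.06) and Ehhadh without vehicle mouse 2 of withdrawal (0.43 to 0.62). Of 11 alternatives, Acadl and Acadm lost the call in 6, Cpt1a in 4, Acaa1b and Cd36 in 3 and Ehhadh in 2. Crat and Eci1 lost it in 1.

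Called in testosterone livers alone were Decr2 (0.93 ± 0.20), Ech1 (0.37 ± 0.11) and Bdh1 (0.29 ± 0.08), all higher at the withdrawal time. Decr2 read 308, 333 and 308 at the withdrawal time, against 167, 149 and 183 at the end, with no overlap. Ech1, an isomerase of unsaturated chains, averaged 1884 ± 239 at the withdrawal time and 1456 ± 101 at the end, and Bdh1 1036 ± 58.9 and 847 ± 33.2. Ech1 lost its call without any of 5 of the 6 mice (0.30 to 0.48, testosterone mouse 1 of withdrawal being the exception), and Bdh1 without testosterone mouse 2 or 3 of either time (0.26 to 0.34). Of 11 alternatives, Ech1 and Bdh1 each lost the call in 5 and Decr2 in 2. That a member passed in only 1 treatment was not shown to be a difference between treatments, since the test of that difference called none of the 34. Acadm and Acaa1b were called higher both with testosterone at the end and with time in vehicle livers, comparisons that share the vehicle mice of the end. Decr2 and Bdh1 were called lower with testosterone at the end and higher with time in testosterone livers. Those comparisons share the testosterone mice of the end. The change of Cd36 with time in vehicle livers shares mice with both of its testosterone comparisons. The Plin2 call after withdrawal shares mice with both comparisons between times. The 12 members called in none of the 5 comparisons were Cpt2, Acadvl, Hadha, Hadh, Acaa2, Etfa, Etfb, Eci2, Ppara, Fabp1, Vnn1 and Angptl4.

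**Figure D4:**
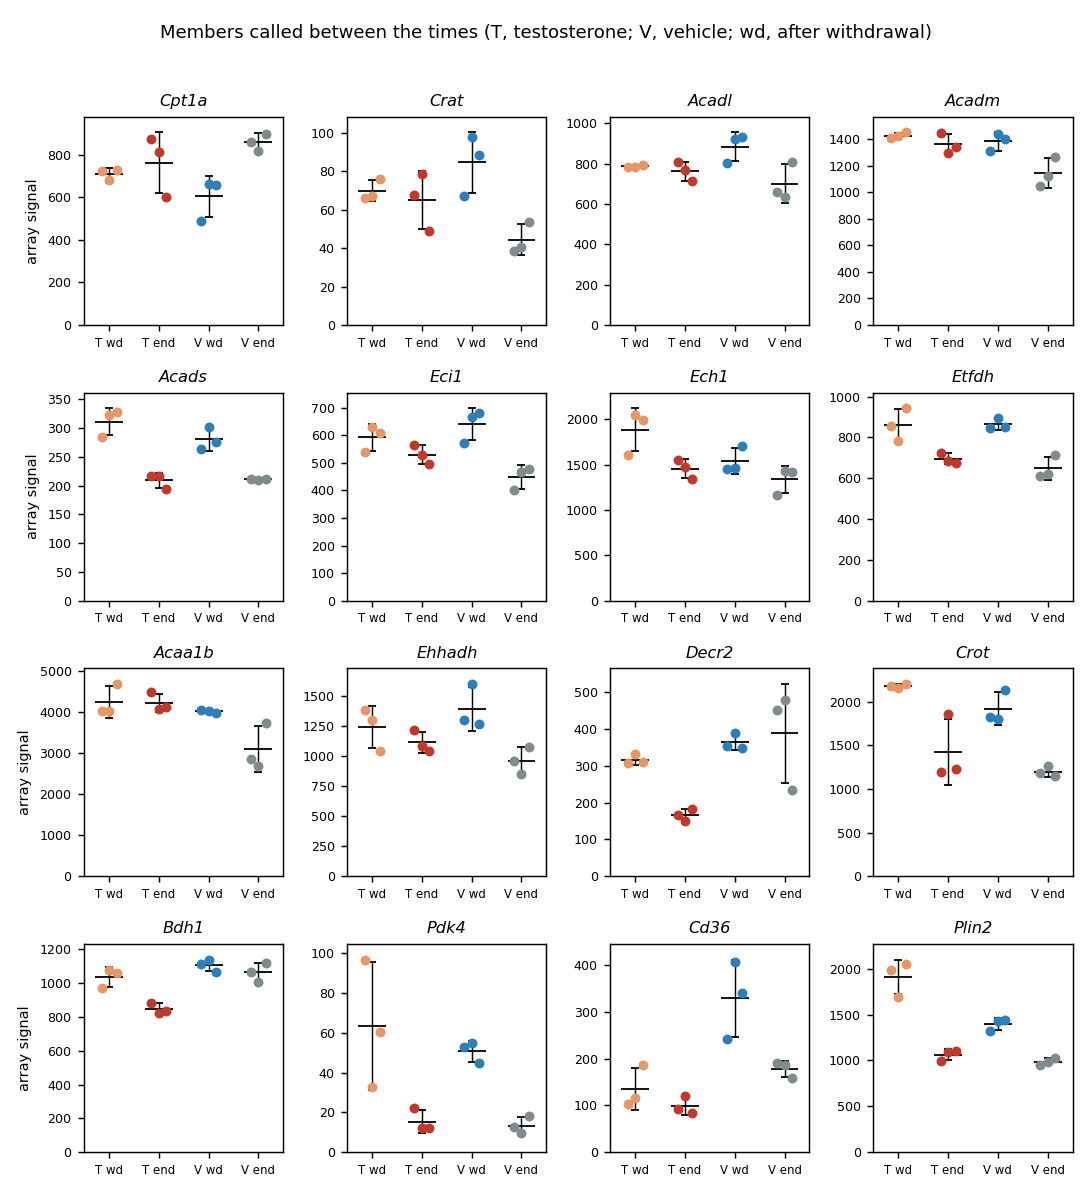
Array signal of every mouse for the 16 members called between the times, with testosterone (T) and vehicle (V) mice after withdrawal (wd) left of those at the end; points are mice, lines means and bars SD (n = 3), and each axis starts at 0. Pdk4 read 33.0 to 96.9 in T wd mice and 11.9 to 22.0 in T end mice, and Plin2 was higher after withdrawal than at the end in both treatments.

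Members differed in how much mice of 1 group varied. The coefficient of variation within groups, averaged over the 4 groups, was under 10% in 21 of the 34 members. It was 3.44% for Hadha and 3.68% for Fabp1, and reached 32.9% for Vnn1, 32.6% for Pdk4, 24.8% for Angptl4 and 21.6% for Cd36. Vnn1 overlapped in every comparison: it read 469, 399 and 230 in testosterone livers and 200, 214 and 363 in vehicle livers at the end. After withdrawal it read 273, 190 and 390 in testosterone livers and 237, 390 and 415 in vehicle livers.

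Several members were read by more than 1 probe set, and some of these disagreed in sign with the brightest one, without being called themselves over all named probe sets. For Hadhb a second probe set gave 0.53 for testosterone at the end, where the brightest gave -0.04, and -0.42 and 0.15 between times in testosterone and vehicle livers. For Acaa2, the mitochondrial thiolase, it gave -0.38 at the end, against 0.08 by the brightest, and -0.32 between times in vehicle livers. The direction of these members was thus not shared by their probe sets. For Bdh1 the dim second probe set gave -0.23 between times in testosterone livers, opposite to the called change. The other probe sets of Cpt1a gave -0.76 and -0.26 for testosterone after withdrawal, against 0.25 by the brightest, and one gave 0.28 between times in vehicle livers, opposite to its called decrease. After withdrawal the second probe sets of Hsd17b4 (-0.10) and Pex11a (-0.04) also had the opposite sign. These members were not called after withdrawal by the brightest probe set either. Between times, opposite signs were also given by probe sets of Decr1 (-0.23 in testosterone and -0.13 in vehicle livers), Fabp1 (0.08 in vehicle livers), and Acadl (-0.17), Crat (-0.62) and Slc25a20 (0.02) in testosterone livers. In the difference between the testosterone effects, probe sets of Bdh1 (-0.51), Cpt1a (-1.12 and -0.83), Hadh (-0.005) and Hadhb (-0.57) had the opposite sign.

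Other genes of these pathways were counted in lists chosen with earlier results of these data known. For comparison with every list below, 9.42% of all genes tested were called higher and 8.01% lower at the end. After withdrawal these shares were 2.74% and 3.26%. For the list genes, results with the actin ratio, under the other alternatives or without single mice are not given here. The actin, Gapdh and pyruvate carboxylase ratios separated the groups at the end, and their part in the list changes was not tested. Among 21 further tested genes of mitochondrial acyl-CoA metabolism, 9 were lower and 0 higher in testosterone livers at the end, with a median change of -0.31. They included Echs1, the enoyl-CoA hydratase of the mitochondrial spiral, which averaged 939 ± 65.4 in testosterone livers and 1376 ± 38.4 in vehicle livers (-0.55 ± 0.10, adjusted p = 0.00143 by limma), and the thioesterases Acot9 (-0.62) and Acot13 (-0.58). The list also holds the acetyl-CoA carboxylase Acaca, which makes the inhibitor of CPT1 and is 1 of the 9 lower genes (-1.38). At the end it was above the array median in 0 of 3 testosterone mice and 3 of 3 vehicle mice. It thus passed the filter through the vehicle mice in which it is high, and its place in the count depends on that. The size of its change rests on dim signals. After withdrawal 0 of the 21 were higher and 1, Acad10, was lower (-0.65). Between the effects at the 2 times Echs1 passed in the positive direction (0.58, adjusted p = 0.0415).

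Of 24 further peroxisomal genes, 5 were higher and 2 lower at the end. Nudt7, a peroxisomal CoA hydrolase, was the largest increase, at 3729 ± 260 in testosterone livers and 2021 ± 295 in vehicle livers (0.89 ± 0.15). The others were Phyh (0.42), the hydroxylase of branched phytanic acid, Acox2 (0.38), Abcd3 and Scp2, while the phytanic acid lyase Hacl1 was lower (-0.71), as was Pecr. After withdrawal 3 were higher and 1 lower, with Nudt7 at 1.28, Scp2 at 0.38 and Phyh at 0.37, and Nudt19 lower at -0.44.

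Ketone metabolism beyond Bdh1 gave 1 called gene of 4 at the end and again after withdrawal. Slc16a7, a carrier of monocarboxylates including ketone bodies, was lower with testosterone at both times. At the end it averaged 181 ± 3.40 in testosterone livers and 346 ± 24.1 in vehicle livers (-0.93 ± 0.11), and after withdrawal 251 ± 13.8 in testosterone livers and 402 ± 66.5 in vehicle livers (-0.67 ± 0.11). Slc16a1, another such carrier, was not called for testosterone and was higher later than at the end in testosterone (1.06 ± 0.13) and vehicle livers (1.23 ± 0.13).

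Genes of fatty acid uptake, activation and carnitine supply gave 1 higher and 2 lower of 16 at the end. The carnitine synthesis enzyme Tmlhe (-1.09) and the binding protein Fabp5 (-1.03) were lower and the acyl-CoA binding protein Dbi was higher (0.25); after withdrawal 0 of the 16 passed, with 2 higher and 1 lower at an unadjusted p under 0.05 by limma. Among 22 further PPARA targets 7 were higher and 4 lower at the end, led by Acot3 (-3.33), Acot4 (-1.82), Acot1 (1.56) and G0s2 (-1.09), and 2 were higher and 2 lower after withdrawal. Of 17 partners and coregulators of PPARA, 4 were higher and 0 lower at the end: Lpin1, a coactivator and phosphatidate phosphatase (1.15), Tbl1x (0.52), the partner receptor Rxra (0.37) and Hnf4a (0.31). After withdrawal limma called 0 of these 17, with 0 higher and 4 lower at an unadjusted p under 0.05. For this unadjusted count and that of the uptake genes, the share of all genes is not given here. The testosterone effect on Lpin1 differed between the times (-1.93 ± 0.38, adjusted p = 0.0206).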

How the data were processed

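Each array is 1 mouse, grouped by sample title. The deposited values are linear intensity signals, 1 per probe set; the programs listed in the submitters' processing notes are GCOS and MAS5 (versions not given), and the labels' protocols give 5 µg of total RNA labelled by the Affymetrix one-cycle kit. Every array had a 2% trimmed mean of 100.05, and no scaling was added. Signals under 4.84, the 25th percentile of 22626 non-control probe sets, were set to that value before log2. Each gene took its brightest probe set, kept when above the array median on at least 3 of 12 arrays. limma 3.58.1 in R 4.3.3 (lmFit, eBayes with trend) fitted 4 group means to all 12 arrays; tests were two-sided. The code was tested on simulated data. Precision is limited by 3 arrays per group. Members and lists were chosen with earlier results of these data known. Members called for testosterone, in the difference or between times were named with their values, together with Ppara and up to 4 called genes of each further list. Vnn1, Crat, Hadh, Eci1 and other uncalled members were named after their values were seen.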

Additional observations from a re-analysis of the deposited data

How the results depend on the processing

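Counted over all comparisons there were 34 calls, made by 22 of the members. All of these calls kept their direction under every alternative and every omission of a mouse. With all mice, 7 members were higher and 3 lower at the end, 2 and 1 after withdrawal, 8 and 0 between times in testosterone livers, and 12 and 1 in vehicle livers. Counts of higher members at the end were 3 with no filter on dim genes, 3 without the variance trend, 4 with the replicate block and 0 with the actin ratio; lower members were 1 with the mean of probe sets and 0 with the actin ratio. After withdrawal 1 member was higher with no filter, the mean of probe sets, median centring, the actin ratio, the replicate block, only the groups compared or no trend, and 2 were lower with quantile normalization. In testosterone livers between times 4 were higher with no filter, 5 with median centring or no trend and 1 with the actin ratio. In vehicle livers 7 were higher with no filter or median centring and 4 with the actin ratio, and 0 were lower with no filter, the mean of probe sets, the actin ratio or without both mice with muscle RNA, an alternative chosen after seeing the data, which also gave 1 member a higher effect in the difference. Leaving out single mice gave 1 to 6 higher and 2 to 3 lower at the end, 1 to 4 higher and 1 lower after withdrawal, 5 to 9 higher between times in testosterone livers, 6 to 14 higher and 0 to 2 lower in vehicle livers, and 0 to 1 in each direction for the difference. Median centring moved the median of all genes by -0.10 between times in vehicle livers. The cause of these moves was not tested, except that no filter adds genes to the adjustment and leaving out a mouse removes a sample. Same-numbered mice did not deviate together (r -0.08 to -0.002), so the block has no basis in shared animals.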

Other observations

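Skeletal muscle transcripts differed in level between the 2 withdrawal mice that carried them: myoglobin (Mb) was 262 in testosterone mouse 1 and 99.7 in vehicle mouse 1, against at most 3.28 in the other 10 mice. Of 7 fat cell markers, Fabp4 (41.2 to 105) and Lipe (22.6 to 43.1) passed the filter and 3 were at or under the floor on average. Duct markers had 0 of 5 above the filter.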
